A study of Homo sapiens with 24 samples.

Results

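The 42 genes described here are WNT ligands, their receptors and co-receptors, secreted and intracellular WNT inhibitors and feedback genes, and CTNNB1 (β-catenin) with its DNA-binding partners. They were listed by symbol and matched to the Ensembl identifiers of the count tables, which hold 60675 genes, and all 42 were found. The list comprised 13 ligands, 16 receptors and co-receptors, 8 inhibitors and feedback genes, and 5 genes for the transcription factors and CTNNB1. Gene expression was measured by RNA-seq in 24 libraries of total RNA from 2 human kidney cell lines, with 3 libraries in each of 8 groups. ACHN is a renal carcinoma line labelled as ccRCC, and HK2 is a line of proximal tubule origin labelled as human kidney. Each line was studied with a control hairpin (shNC), with KDM5C knocked down (shKDM5C), with YY1 knocked down (shYY1), and with both knocked down (double knockdown), and the comparisons ask how loss of this H3K4 demethylase, of this transcription factor, or of both changes expression in each line. All groups, controls included, were stable lines made with lentiviral hairpin vectors under puromycin selection and grown in DMEM with fetal bovine serum; the double-knockdown lines were YY1-depleted cells infected in addition with a GFP-labelled KDM5C hairpin vector. The labels do not say which hairpin was used, and they call the 3 libraries of a group repeats without saying whether they came from separate cultures, so that p-values measure the spread between these libraries, which may be technical.

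WNT proteins are secreted ligands that bind Frizzled (FZD) receptors together with the co-receptors LRP5 or LRP6. In the canonical pathway, binding stops the destruction of β-catenin, which then enters the nucleus and activates targets with the TCF and LEF factors; several targets, AXIN2, NKD1, NOTUM, RNF43 and ZNRF3 among them, encode proteins that dampen the signal. Ligands such as WNT5A and WNT5B act largely without β-catenin, through FZD proteins and the kinase-related receptors ROR1, ROR2 and RYK. In the kidney the pathway is known for its part in nephron formation, and it is mostly quiet in mature tubules.

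Library totals ranged from 15926561 to 24272298 counts. Levels are given below in CPM, the usual depth-scaled counts, on 1 scale of normalised library sizes over the 24 libraries. KDM5C stood at 71.2, 71.0 and 70.2 CPM in ACHN shNC and at 42.1, 44.6 and 42.4 CPM in ACHN shKDM5C, and its level in HK2 was 190, 188 and 194 CPM in shNC and 34.1, 67.5 and 67.1 CPM in shKDM5C. YY1 went from 135, 139 and 143 CPM to 80.0, 73.0 and 77.4 CPM with shYY1 in ACHN, and from 210, 212 and 200 CPM to 61.8, 67.1 and 62.9 CPM in HK2. KDM5C was higher with shYY1 than in shNC, at 1673, 1652 and 1675 counts against 1358, 1317 and 1296 in ACHN. In HK2 KDM5C had 4359, 4080 and 4004 counts with shYY1 against 3468, 3411 and 3774 in shNC. In the double-knockdown libraries both genes were below every shNC library in both lines, but YY1 was less reduced there than with shYY1. It had 1757, 1887 and 2360 counts in the ACHN double knockdown against 1500, 1355 and 1382 with shYY1. In HK2 YY1 had 1277, 1281 and 1273 counts against 1040, 1140 and 1089. Scaled for depth, its double-knockdown libraries were also above its shYY1 libraries in both lines. HK2 shKDM5C replicate 1 stood apart from its partners: the SD of its log2 differences from them over the 10083 genes at 10 CPM or more was 0.693 and 0.704, against 0.113 to 0.182 for the 22 other pairs of replicates. Its share of counts from mitochondrial genes was 11.8%, against 4.75 to 5.52% in the 11 other HK2 libraries, so results that rest on this library are given with and without it. Of 13 renal epithelial markers, 12 in ACHN and 13 in HK2 reached 1 CPM, whereas 1 of 5 proximal tubule transporter genes (SLC5A2) did so in either line. No endothelial marker of 3 did so in either line, and of 4 leukocyte markers CD14 did so in HK2 alone. In these bulk libraries a smaller number of cells with a transcript and less of it per cell cannot be told apart.

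In the control cells, WNT5B was the most abundant ligand of both lines per kilobase of exon, and the ligands that followed it differed. Between genes, levels are compared per kilobase of exon (CPM per kb). In ACHN shNC the most abundant ligand was WNT5B, at 17 ± 0.904 CPM per kb (SD, n = 3), followed by WNT2B at 8.98 ± 0.238. In HK2 shNC it was again WNT5B, at 7.70 ± 0.752 CPM per kb, followed by WNT5A at 5.49 ± 0.179 and WNT7B at 4.93 ± 0.451, which differ from each other by little more than their spread. The first place of WNT5B rests on the division by exon length. By counts WNT2B was higher than WNT5B in ACHN shNC (6325 against 4104). WNT5A was higher than WNT5B by counts in HK2 shNC (2309 against 1856). Among the receptors, FZD2 was the highest in ACHN (35.2 ± 0.779 CPM per kb) and FZD6 the highest in HK2 (56.8 ± 1.38 CPM per kb). DKK3, a secreted Dickkopf family member, was the highest of the genes listed as inhibitors and feedback genes in both lines, and CTNNB1 stood at 47.9 ± 1.37 CPM per kb in ACHN and 44.4 ± 0.717 in HK2. FZD10, a Frizzled receptor, had no count in any of the 24 libraries, and 5 more members (LGR5, WNT11, WNT16, WNT6 and WNT7A) were too low to test in either line. Of the 36 members that passed the filter on low counts, 33 did so in a comparison of a knockdown with shNC in ACHN and 32 in HK2. In these comparisons NKD1, ROR2, SFRP1 and WNT4 passed in ACHN alone and FZD8, LEF1 and WNT10A in HK2 alone; in other comparisons FZD8 also passed in ACHN, and WNT4 passed in HK2 once shKDM5C replicate 1 was left out.

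**Figure D1:**
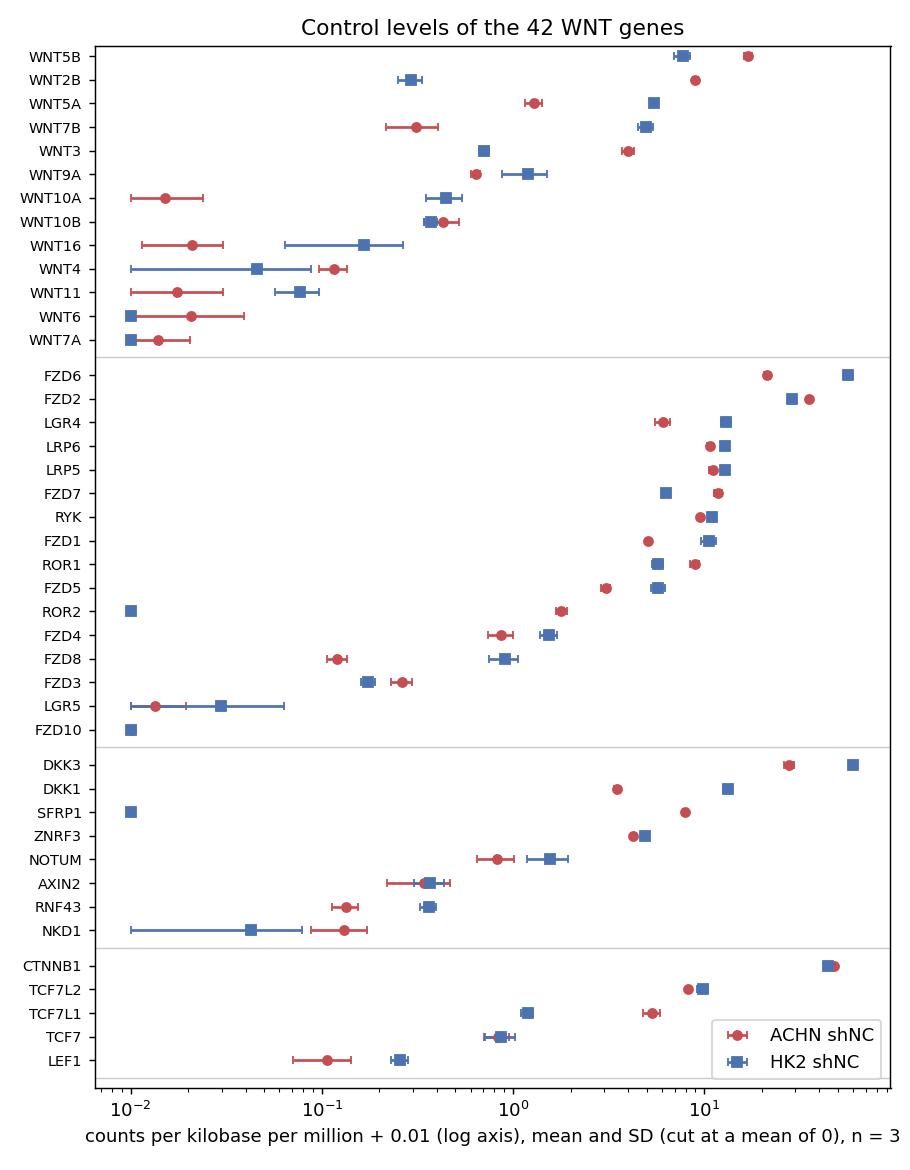
Control level of the 42 WNT genes in ACHN and HK2 shNC, in CPM per kilobase of exon with 0.01 added, on a log axis and in blocks by role; points are means and bars the SD of 3 libraries, cut where the level is 0. WNT2B is high in ACHN and low in HK2, and WNT7B and WNT5A are the other way round.

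Between the control lines, 12 of the 35 members tested were higher in ACHN and 20 were lower (adjusted p under 0.05 in edgeR's quasi-likelihood test), beside 38.6% and 38.0% of all genes tested. With a log2 difference of at least 1.5 required as well, 6 were higher and 6 lower, beside 11.4% and 9.90% of all genes. WNT2B, a ligand of the canonical pathway, had 109, 115 and 114 CPM in ACHN shNC and 3.01, 4.08 and 3.55 CPM in HK2 shNC, a 31.6-fold difference (log2 4.98, SE 0.08, adjusted p = 1.31e-27). WNT7B, a ligand of epithelia, had 1.31, 1.19 and 2.06 CPM in ACHN and 25.4, 22.4 and 26.9 CPM in HK2, 16.5-fold higher in HK2. The ligand WNT5A was 4.33-fold and the secreted inhibitor DKK1 3.84-fold higher in HK2. SFRP1, a secreted inhibitor that binds WNT ligands, had 38.2, 36.9 and 37.9 CPM in ACHN shNC and no count in any of the 12 HK2 libraries. Against a floor of 3 counts over the 3 HK2 shNC libraries, which is 0.0537 CPM, SFRP1 was at least 702-fold higher in ACHN and the receptor ROR2, which had no count in HK2 shNC either, at least 193-fold higher. The floor covers counting error only. Cell line and any batch between the lines cannot be told apart in this comparison.

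The sequences upstream of 4 members whose expression is described below are shown: WNT2B (lower with shKDM5C in ACHN), WNT5B (higher with it), and ROR2 and RNF43 (lower with shYY1 and at another level in the double knockdown). A link between these sequences and the expression changes was not tested. They come from RefSeq (build GRCh38.p14), cover the 250 bases before a transcription start, and read 5′ to 3′ on the gene's strand; capitals mark a match to CCATNTT, the core letters of the YY1 motif. The WNT2B window lies at chr1:112466291-112466540 (plus strand), WNT5B at chr12:1628981-1629230 (plus strand), ROR2 at chr9:91950229-91950478 (minus strand) and RNF43 at chr17:58402722-58402971 (minus strand), and none of them overlaps an annotated exon of GENCODE release 44.
WNT2B: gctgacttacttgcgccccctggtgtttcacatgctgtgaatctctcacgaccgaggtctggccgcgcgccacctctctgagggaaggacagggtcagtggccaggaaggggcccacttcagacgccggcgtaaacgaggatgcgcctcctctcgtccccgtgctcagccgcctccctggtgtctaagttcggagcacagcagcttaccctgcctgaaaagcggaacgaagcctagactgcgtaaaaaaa
WNT5B: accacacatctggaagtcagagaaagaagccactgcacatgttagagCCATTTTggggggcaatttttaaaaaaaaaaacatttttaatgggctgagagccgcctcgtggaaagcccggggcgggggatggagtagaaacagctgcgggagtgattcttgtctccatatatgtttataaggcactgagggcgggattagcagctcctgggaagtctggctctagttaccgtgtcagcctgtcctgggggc
ROR2: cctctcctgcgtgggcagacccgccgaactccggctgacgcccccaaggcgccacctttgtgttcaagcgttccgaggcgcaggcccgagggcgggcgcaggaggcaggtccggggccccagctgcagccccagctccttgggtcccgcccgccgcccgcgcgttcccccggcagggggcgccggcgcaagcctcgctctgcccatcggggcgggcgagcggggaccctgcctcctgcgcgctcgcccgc
RNF43: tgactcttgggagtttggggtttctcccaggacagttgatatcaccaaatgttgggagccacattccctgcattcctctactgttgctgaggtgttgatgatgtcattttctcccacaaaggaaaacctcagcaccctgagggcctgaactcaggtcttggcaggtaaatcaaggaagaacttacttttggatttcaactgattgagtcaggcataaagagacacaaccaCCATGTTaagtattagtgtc
Their GC content was 60.4% for WNT2B, 50.8% for WNT5B, 78.0% for ROR2 and 45.2% for RNF43. Promoters were given for 26 of the 42 members, with 33 starts, and were searched on both strands over 300 bases, from 250 before the start to 50 after it. CCATNTT was found for 3 members (CTNNB1, WNT5B and RNF43) and in 15.6% of the 35116 promoters of all genes. The TCF and LEF letters ATCAAAG were found for no member and in 2.62% of all promoters, and GATGGCGG, the longer YY1 letters, for TCF7 alone and in 2.34%. WNT2B, WNT5B and RNF43 each have a further listed start, and gene counts do not tell which start was used. For WNT5B and RNF43, the printed window lies before a start inside the gene, and their further listed start held no match to CCATNTT.

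In ACHN, 22 of the 32 members tested changed with shKDM5C. The counts were 9 higher and 13 lower, which is 28.1% and 40.6% of those tested, beside 28.9% and 27.7% of all genes. With a log2 fold change of at least 1.5 required as well, none rose and 4 fell (WNT2B, RNF43, AXIN2 and NOTUM), beside 0.667% and 2.68% of all genes. With shYY1, 8 of 33 members rose and 15 fell, beside 24.2% and 24.5% of all genes. By the stricter rule 3 rose (DKK1, NOTUM and WNT7B) and 3 fell (ROR2, RNF43 and AXIN2), beside 0.904% and 2.23%. AXIN2 lay at the threshold, at −1.50. In the double knockdown 11 of 33 rose and 16 fell, beside 30.7% and 32.0% of all genes. Past the stricter threshold none rose and 8 fell (WNT2B, TCF7, SFRP1, FZD4, NKD1, AXIN2, NOTUM and WNT7B), which is 24.2% of the members tested, beside 2.81% and 5.61% of all genes. The median log2 fold change over all members tested, called or not, was −0.21, −0.02 and −0.04 with shKDM5C, shYY1 and the double knockdown, beside −0.01 for all genes in each comparison. Their median absolute log2 fold change was 0.34, 0.37 and 0.86, beside 0.27, 0.22 and 0.39 for all genes. The 3 comparisons share the shNC libraries.

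**Figure D2:**
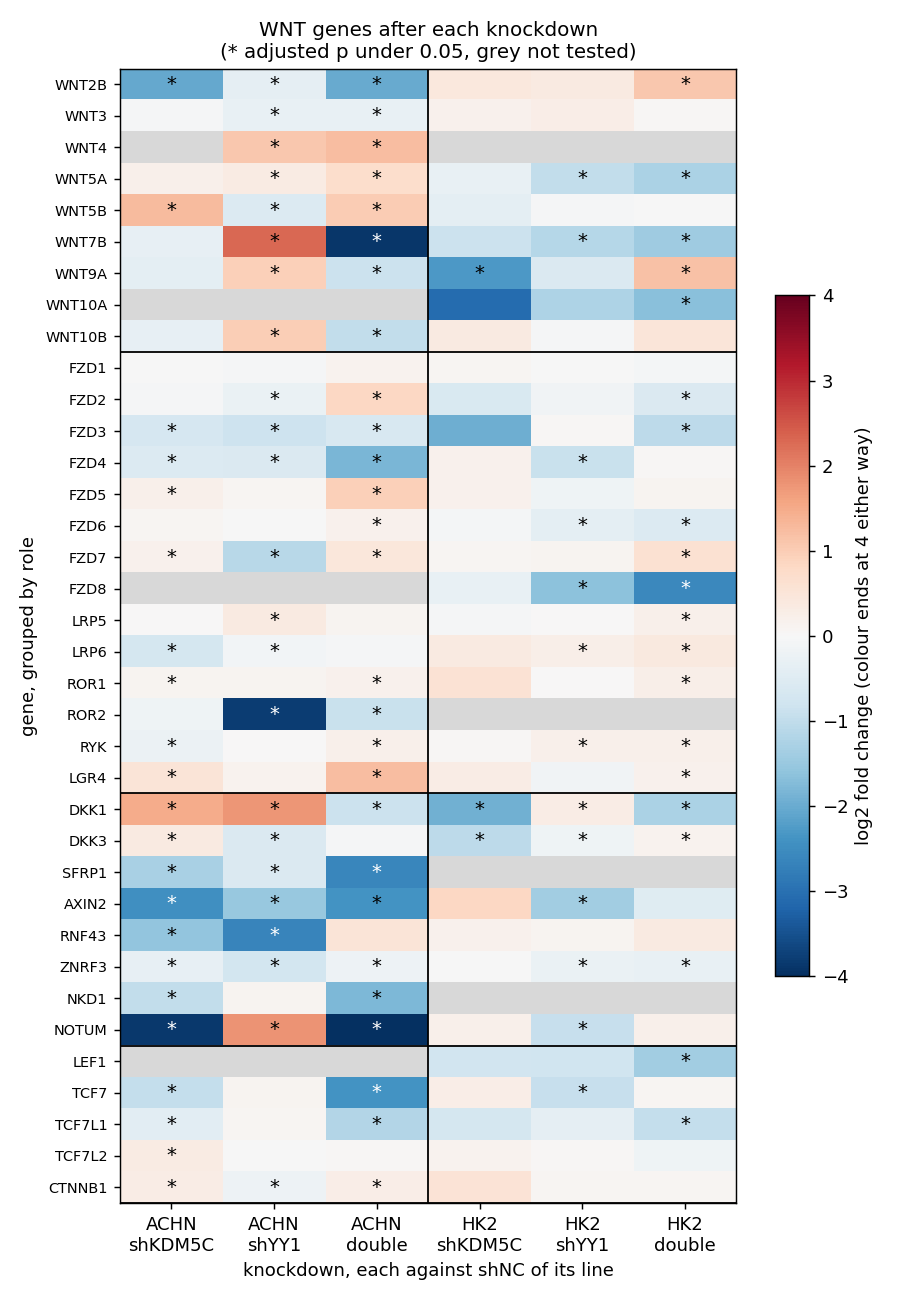
Log2 fold change of each tested WNT gene against shNC in the 3 knockdown groups of each line, as colour (blue lower, red higher) in blocks by role; stars show adjusted p under 0.05 and grey cells were not tested. NOTUM, AXIN2, SFRP1, TCF7, WNT7B and WNT2B are blue in the ACHN double knockdown, where RNF43 carries no star.

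Among the ligands in ACHN, WNT2B fell and WNT5B rose with shKDM5C, and both differences were also present in the double knockdown. WNT2B had 109, 115 and 114 CPM in shNC, 27.4, 28.1 and 27.6 CPM in shKDM5C, 86.0, 85.5 and 93.7 CPM in shYY1, and 28.4, 28.0 and 27.5 CPM in the double knockdown. The shKDM5C and double-knockdown libraries were alike and far below the shNC libraries, with the shYY1 libraries in between. WNT2B fell by 2.04 on the log2 scale with shKDM5C (SE 0.05, adjusted p = 7.9e-22) and by 2.01 in the double knockdown (SE 0.05, adjusted p = 5.63e-16), and by 0.37 with shYY1 (SE 0.04, adjusted p = 1.02e-09). WNT5B, a ligand that acts largely without β-catenin, had 74.3, 68.8 and 76.3 CPM in shNC, 177, 182 and 169 CPM in shKDM5C, 56.0, 48.5 and 48.0 CPM in shYY1, and 144, 145 and 154 CPM in the double knockdown. No group overlapped another. Its log2 fold change was 1.25 with shKDM5C (SE 0.04, adjusted p = 1.38e-18), −0.55 with shYY1 (SE 0.05, adjusted p = 1.64e-10) and 1.02 in the double knockdown (SE 0.05, adjusted p = 4.57e-12). The window printed above, which lies before 1 of the listed WNT5B starts, holds 1 match to CCATNTT, and its part in these changes was not tested.

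The less abundant ligands WNT7B, WNT9A and WNT10B rose with shYY1 and fell in the double knockdown. WNT7B had 1.31, 1.19 and 2.06 CPM in shNC, 0.867, 1.69 and 1.09 CPM in shKDM5C, 8.86, 6.46 and 7.39 CPM in shYY1, and 0.0515, 0 and 0.204 CPM in the double knockdown, which is 1, 0 and 5 counts. The shYY1 libraries lay above all others and the double-knockdown libraries below all others. WNT7B rose by a log2 fold change of 2.29 with shYY1 (SE 0.19, adjusted p = 3.84e-12), and its fitted value in the double knockdown was −3.89 (SE 0.57, adjusted p = 8.3e-06), which depends on very few counts and moved to −5.50 without replicate 3. WNT9A had 2.36, 2.64 and 2.49 CPM in shNC, 5.23, 5.12 and 4.42 CPM in shYY1 and 1.24, 1.38 and 1.47 CPM in the double knockdown, with no overlap between these groups (log2 fold change 0.96 with shYY1, adjusted p = 2.21e-05; −0.86 in the double knockdown, adjusted p = 0.00422). WNT10B, near 1 CPM in shNC, had log2 fold changes of 1.0 with shYY1 (SE 0.27, adjusted p = 0.00286) and −1.0 in the double knockdown (SE 0.36, adjusted p = 0.0224). The second call was lost in 5 of 13 alternatives, among them leaving out shNC replicate 2 or 3 or double-knockdown replicate 1 or 3. WNT5A rose modestly, by log2 0.34 with shYY1 and 0.70 in the double knockdown, and its 3 double-knockdown libraries, at 14.3, 17.8 and 14.6 CPM, were above its 3 shNC libraries at 9.49, 10.6 and 8.66 CPM.

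Receptors moved in both directions in ACHN. In the double knockdown 7 of the 13 receptors tested rose (ROR1, FZD7, FZD5, RYK, FZD6, LGR4 and FZD2) and 3 fell (FZD3, ROR2 and FZD4), beside 30.7% and 32.0% of all genes. The FZD6 call (log2 0.18), with 1 double-knockdown library at 87.3 CPM below the highest shNC library at 90.0 CPM, was lost without shNC replicate 1 or 3 or double-knockdown replicate 2. ROR2, a receptor for WNT5A, had 9.60, 10.7 and 10.8 CPM in shNC, 10.5, 8.60 and 8.54 CPM in shKDM5C, 1.12, 0.539 and 0.560 CPM in shYY1, and 5.30, 6.48 and 4.97 CPM in the double knockdown. The shYY1 libraries were the lowest and the double-knockdown libraries lay between them and shNC, without overlap, whereas shKDM5C and shNC overlapped. ROR2 was 14-fold lower with shYY1 (log2 −3.81, SE 0.20, adjusted p = 1.56e-17), and with both knockdowns it stood at log2 −0.89 (SE 0.13, adjusted p = 9.43e-06). Between the double knockdown and shYY1 it differed by log2 2.90 (SE 0.26, adjusted p = 4.35e-08).

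FZD7 had 45.8, 43.6 and 47.6 CPM in shNC, 56.4, 49.5 and 48.8 CPM in shKDM5C, 21.1, 21.9 and 21.3 CPM in shYY1, and 60.1, 63.6 and 61.9 CPM in the double knockdown, a fall by 1.11 on the log2 scale with shYY1 (adjusted p = 2.9e-17) and a rise of 0.44 in the double knockdown (adjusted p = 2.01e-06). FZD2, the most abundant Frizzled in ACHN per kilobase of exon, had 74.3, 76.1 and 72.8 CPM in shNC and 129, 135 and 128 CPM in the double knockdown, with log2 fold change 0.82 (SE 0.05, adjusted p = 3.54e-11). FZD4 had 5.24, 6.80 and 6.98 CPM in shNC, 4.01, 4.95 and 4.08 CPM in shKDM5C, 4.11, 3.99 and 4.81 CPM in shYY1, and 2.06, 1.99 and 1.39 CPM in the double knockdown. All FZD4 knockdown libraries were below all shNC libraries, and it fell by 1.82 on the log2 scale in the double knockdown (SE 0.20, adjusted p = 2.31e-07). The R-spondin receptor LGR4 rose from 35.0, 41.6 and 38.7 CPM in shNC to 94.1, 89.9 and 87.5 CPM in the double knockdown (log2 1.24, SE 0.06, adjusted p = 5.16e-12). LRP6, the canonical co-receptor, had 107, 114 and 112 CPM in shNC and 68.6, 67.6 and 68.0 CPM in shKDM5C (log2 −0.72, adjusted p = 1.3e-13), and 103, 117 and 103 CPM in the double knockdown, which overlapped shNC.

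Of the 8 inhibitors and feedback genes tested in ACHN, 6 fell in the double knockdown (SFRP1, DKK1, NKD1, AXIN2, NOTUM and ZNRF3) and none rose, beside 32.0% and 30.7% of all genes. With shKDM5C, 6 fell (SFRP1, NKD1, RNF43, AXIN2, NOTUM and ZNRF3) and 2 rose (DKK3 and DKK1), beside 27.7% and 28.9% of all genes. With shYY1, 5 fell (SFRP1, DKK3, RNF43, AXIN2 and ZNRF3) and 2 rose (DKK1 and NOTUM), beside 24.5% and 24.2% of all genes. SFRP1 had 38.2, 36.9 and 37.9 CPM in shNC, 17.5, 15.1 and 13.4 CPM in shKDM5C, 26.3, 26.9 and 22.9 CPM in shYY1, and 5.76, 6.15 and 6.60 CPM in the double knockdown. The groups did not overlap, and the double-knockdown libraries were the lowest. SFRP1 fell by 1.31 on the log2 scale with shKDM5C (SE 0.08, adjusted p = 1.43e-13), by 0.59 with shYY1 (SE 0.06, adjusted p = 8.34e-10) and by 2.60 in the double knockdown (SE 0.09, adjusted p = 1.59e-14).

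DKK1, which blocks the co-receptors LRP5 and LRP6, rose with each knockdown alone and fell with both together. It had 7.45, 7.71 and 7.85 CPM in shNC, 21.4, 23.7 and 19.9 CPM in shKDM5C, 26.7, 25.8 and 26.3 CPM in shYY1, and 3.19, 5.48 and 3.95 CPM in the double knockdown. All libraries of each single knockdown were above shNC and all double-knockdown libraries below it. Its log2 fold change was 1.48 with shKDM5C (SE 0.09, adjusted p = 7.77e-13), 1.75 with shYY1 (SE 0.08, adjusted p = 1.07e-18) and −0.87 in the double knockdown (SE 0.17, adjusted p = 0.000199). DKK3, the most abundant gene of those listed as inhibitors and feedback genes, had 134, 150 and 138 CPM in shNC, 187, 180 and 174 CPM in shKDM5C, 96.1, 91.9 and 97.7 CPM in shYY1, and 140, 129 and 138 CPM in the double knockdown, which overlapped shNC.

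The feedback genes AXIN2, NOTUM, RNF43 and NKD1 were low in ACHN and rested on few counts, whereas ZNRF3, which acts like RNF43, was well measured. ZNRF3 had 30.7, 28.9 and 29.4 CPM in shNC, 22.6, 25.7 and 23.6 CPM in shKDM5C, 16.6, 18.9 and 18.6 CPM in shYY1, and 25.5, 24.5 and 26.6 CPM in the double knockdown. Its knockdown libraries were all below its shNC libraries, and it fell by 0.32, 0.74 and 0.21 on the log2 scale (adjusted p = 0.000224, 4.46e-11 and 0.0188). AXIN2, a scaffold of the β-catenin destruction complex, had 0.996, 2.16 and 2.06 CPM in shNC, 0.325, 0.169 and 0.435 CPM in shKDM5C, 0.480, 0.862 and 0.504 CPM in shYY1, and 0.257, 0.388 and 0.326 CPM in the double knockdown. Every knockdown library was below every shNC library, and the log2 fold changes were −2.47 (SE 0.41, adjusted p = 1.19e-05), −1.50 (SE 0.35, adjusted p = 0.000499) and −2.40 (SE 0.41, adjusted p = 4.78e-05). NOTUM, an enzyme that removes the lipid of WNT proteins, had 3.09, 2.10 and 2.22 CPM in shNC, 0.108, 0.169 and 0.218 CPM in shKDM5C, 9.18, 7.65 and 9.29 CPM in shYY1, and 0, 0.498 and 0 CPM in the double knockdown. The shYY1 libraries were above all others and the shKDM5C and double-knockdown libraries below shNC, with a log2 rise of 1.79 under shYY1 (SE 0.16, adjusted p = 1.83e-11), a fitted fall by 3.87 under shKDM5C (SE 0.39, adjusted p = 4.78e-09) and a fitted fall by 4.01 in the double knockdown (SE 0.60, adjusted p = 1.16e-05), where the libraries held 0, 9 and 0 counts, so that leaving out replicate 2 leaves no count and moves the fitted value to −8.63.

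RNF43, a ubiquitin ligase that removes Frizzled receptors, had 1.10, 0.863 and 0.812 CPM in shNC, 0.217, 0.337 and 0.381 CPM in shKDM5C, 0.267, 0.0539 and 0.112 CPM in shYY1, and 1.29, 1.49 and 1.22 CPM in the double knockdown. Both single knockdowns lay below shNC and the double knockdown above it. RNF43 fell by 1.57 with shKDM5C (SE 0.41, adjusted p = 0.0022) and by 2.64 with shYY1 (SE 0.50, adjusted p = 4.25e-05; by 3.41 without shYY1 replicate 1), while a value of 0.52 in the double knockdown did not pass (SE 0.31, adjusted p = 0.151). It was higher in the double knockdown than with shKDM5C (log2 2.09, adjusted p = 0.000165) and than with shYY1 (log2 3.15, adjusted p = 2.18e-05). In the current annotation, 68.4% of RNF43 exon bases are shared with a gene model on the same strand, so its counts could be split or assigned otherwise. NKD1, which binds Dishevelled, had 1.05, 1.46 and 0.704 CPM in shNC, 0.596, 0.281 and 0.762 CPM in shKDM5C, and 0.257, 0.221 and 0.407 CPM in the double knockdown, with log2 fold change −1.79 in the latter (SE 0.44, adjusted p = 0.00165). With shKDM5C it was at −0.97, with groups that overlapped (adjusted p = 0.0385). That call was lost in 6 of 13 alternatives, among them leaving out shNC replicate 1 or 2 or shKDM5C replicate 1 or 2.

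Among the nuclear genes in ACHN, TCF7, a TCF factor that is itself a target of the pathway, had 9.65, 7.87 and 7.25 CPM in shNC, 4.33, 4.78 and 3.76 CPM in shKDM5C, 8.27, 9.64 and 9.52 CPM in shYY1, and 2.11, 1.05 and 1.47 CPM in the double knockdown. The shYY1 libraries overlapped shNC, and the double-knockdown libraries were below all others. TCF7 fell by 0.96 with shKDM5C (SE 0.15, adjusted p = 3.72e-06) and by 2.41 in the double knockdown (SE 0.21, adjusted p = 8.4e-09). TCF7L1, a TCF factor known mainly as a repressor, fell by 0.41 and 1.17 in the same comparisons. CTNNB1 had 321, 306 and 323 CPM in shNC, 390, 390 and 393 CPM in shKDM5C, 286, 277 and 274 CPM in shYY1, and 384, 379 and 369 CPM in the double knockdown. It therefore moved by little, with log2 fold changes of 0.29, −0.20 and 0.26, but without overlap between the knockdown groups and shNC.

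**Figure D3:**
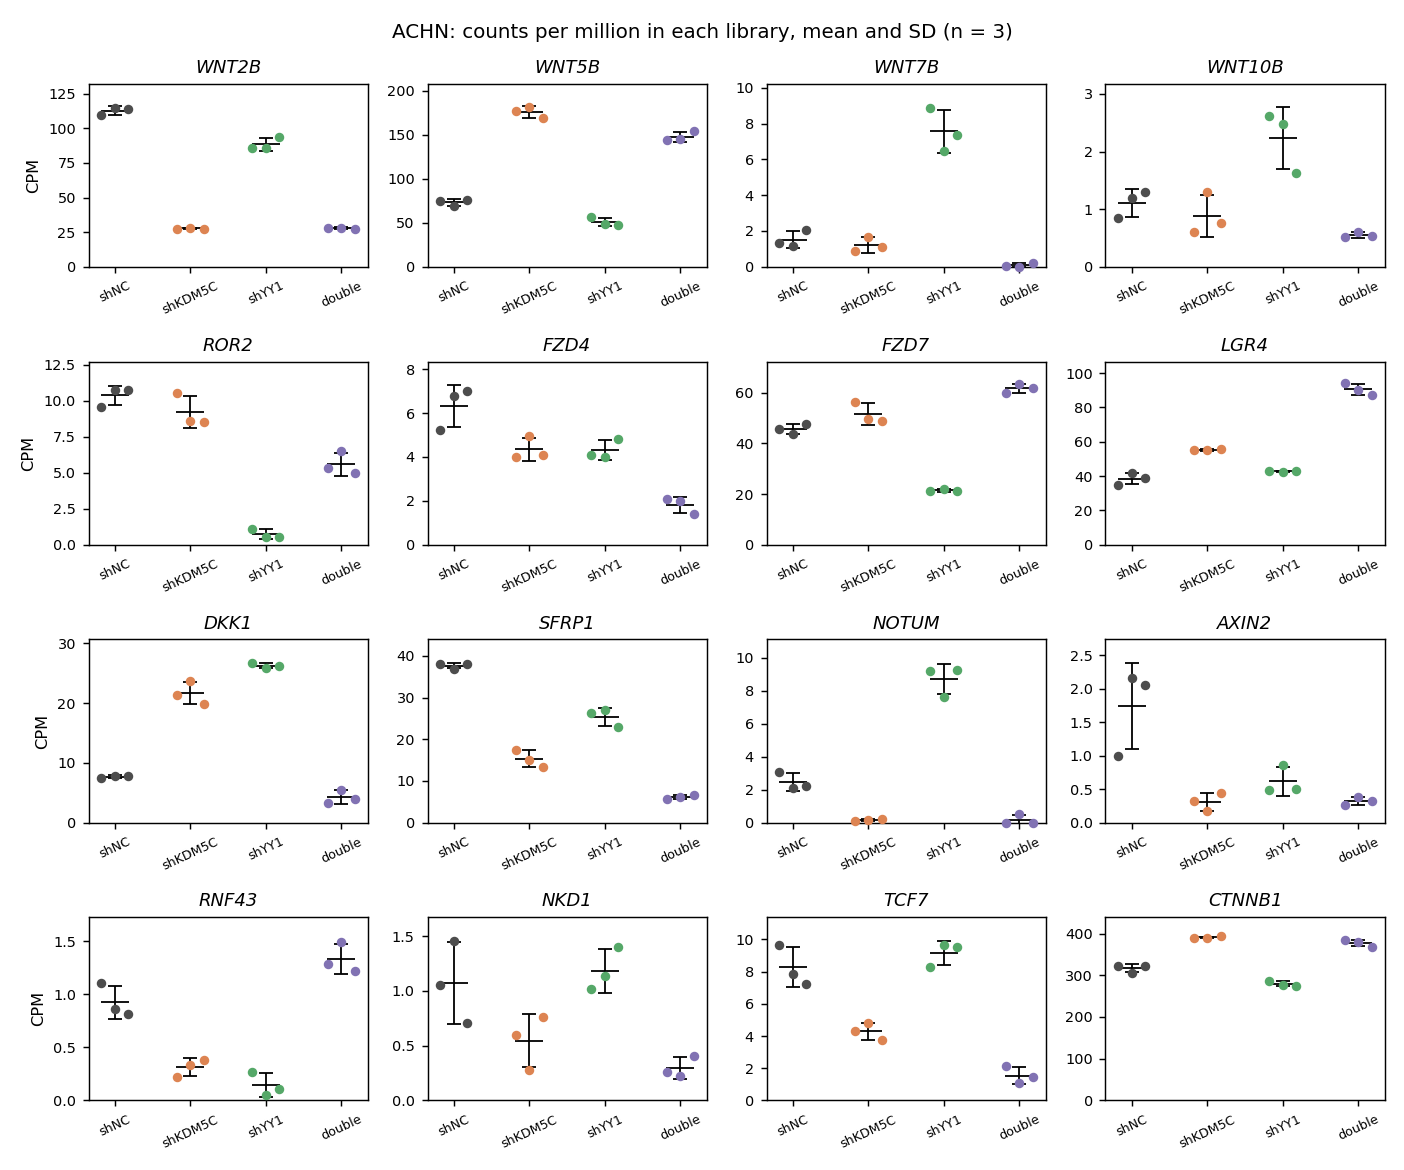
CPM in each ACHN library of 16 WNT genes, by group, on linear axes from 0; points are libraries, and lines are the group mean with its SD. RNF43 and ROR2 are lowest with shYY1, and DKK1 is high in the single knockdowns at 19.9 to 26.7 CPM and low in the double knockdown at 3.19 to 5.48 CPM.

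The interaction term tested whether the log2 fold change with both knockdowns equals the 2 single ones added together. In both lines YY1 was less reduced in the double knockdown than with shYY1, as given above. The term therefore compares unequal losses of YY1, and what this difference contributes was not tested. The double-knockdown lines were also infected a further time, with the GFP-labelled vector. Any effect of that step cannot be told apart from that of losing both genes, here or in the comparisons with shNC. In ACHN 24 of 34 members passed, beside 55.6% of all genes. By the stricter rule ROR2 and RNF43 were above the sum and TCF7, DKK1, WNT10B and WNT7B below it, that is 2 and 4 members, beside 5.84% and 4.39% of all genes. DKK1 lay 4.13 below the sum on the log2 scale (log2 −4.13, SE 0.16, adjusted p = 7.99e-17), and WNT7B had −5.86 (SE 0.57, adjusted p = 2.96e-09). RNF43 had 4.71 (SE 0.64, adjusted p = 6.97e-07) and ROR2 had 3.08 (SE 0.26, adjusted p = 3.14e-10). TCF7 had −1.59 (SE 0.25, adjusted p = 7.1e-06), and WNT10B −1.67 (SE 0.49, adjusted p = 0.00503). Among abundant receptors, FZD7 had 1.37, FZD2 1.11 and LRP6 0.77, each above the sum, whereas the co-receptor LRP5, about as abundant as LRP6, lay below it at −0.29 (SE 0.08, adjusted p = 0.0021). AXIN2 and NOTUM, with 1.55 and −1.96, did not pass (adjusted p = 0.0536 and 0.0879). Compared directly, the double knockdown differed from shKDM5C for 20 of 31 members, beside 62.5% of all genes, and from shYY1 for 26 of 32, beside 64.6% of all genes.

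**Figure D4:**
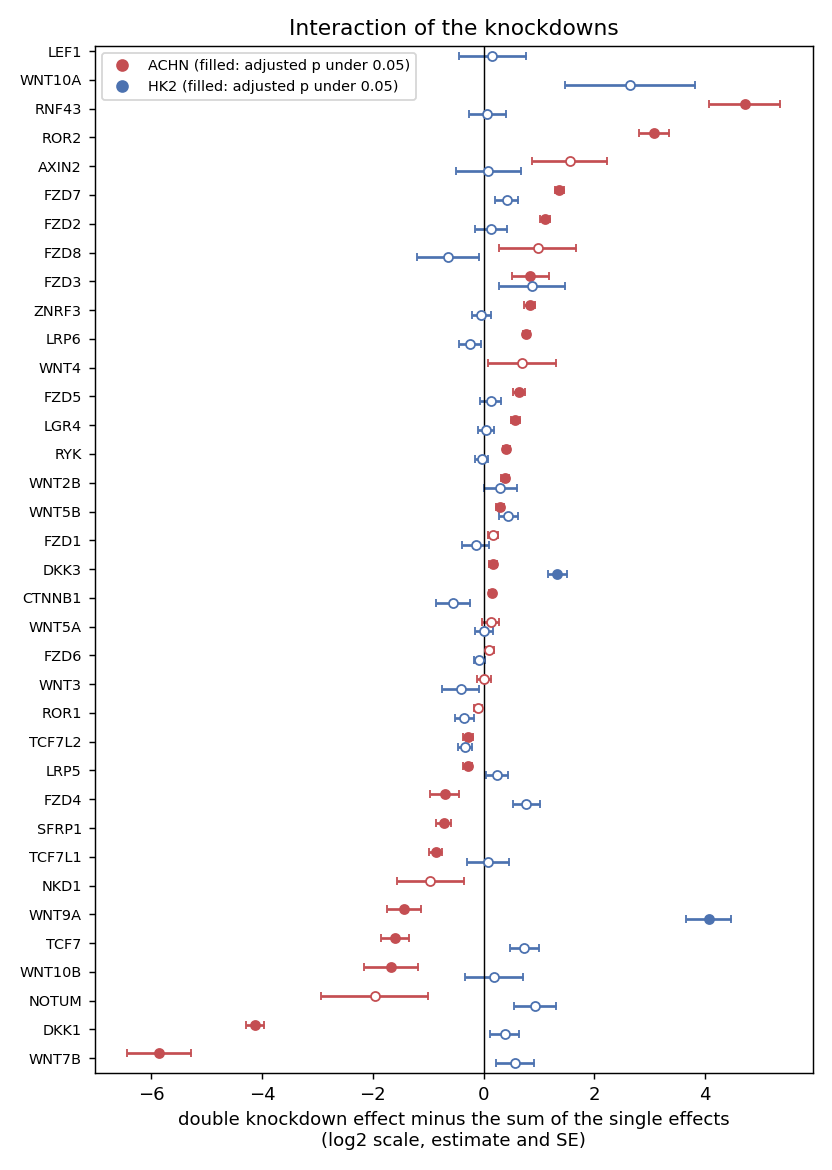
Interaction of the knockdowns in ACHN and HK2 for the WNT genes tested, on the log2 scale with its SE: the double-knockdown log2 fold change minus the sum of the single ones; filled points have adjusted p under 0.05. RNF43 and ROR2 lie above 0 and DKK1 and WNT7B below 0 in ACHN, whereas WNT9A lies above 0 in HK2.

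In HK2, fewer members passed with shKDM5C. With all 3 libraries, none of the 32 tested rose and 3 fell (WNT9A, DKK3 and DKK1), beside 0.668% and 0.656% of all genes. Past the stricter threshold 0 rose and 2 fell, beside 0.235% and 0.266%. None of these 3 passed when any single shNC library was left out, and only DKK1 passed without shKDM5C replicate 2 or 3. Without replicate 1, 4 of 32 rose and 10 fell, beside 11.5% and 10.9% of all genes. With shYY1, 3 of 32 rose (RYK, DKK1 and LRP6) and 10 fell (WNT5A, TCF7, FZD6, DKK3, FZD4, FZD8, AXIN2, NOTUM, ZNRF3 and WNT7B), beside 14.3% and 14.7% of all genes. By the stricter rule none rose and 1 fell (FZD8), beside 0.317% and 0.977%. In the double knockdown 9 of 32 rose (ROR1, WNT2B, WNT9A, FZD7, RYK, DKK3, LGR4, LRP5 and LRP6) and 11 fell (TCF7L1, WNT10A, WNT5A, LEF1, FZD3, FZD6, FZD8, DKK1, FZD2, ZNRF3 and WNT7B), beside 25.5% and 24.3% of all genes. Of these, the DKK3 call (log2 0.13) was lost without shNC replicate 1 or double-knockdown replicate 3, with scaling by total counts and with all 4 groups in 1 fit. Past the stricter threshold none rose and 2 fell (WNT10A and FZD8), beside 2.45% and 1.84%. The median log2 fold change of the 32 members tested was 0.06, −0.14 and 0.05 with shKDM5C, shYY1 and the double knockdown, beside 0.00, 0.01 and 0.00 for all genes.

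Among the HK2 ligands, WNT5A and WNT7B fell with shYY1 and in the double knockdown. WNT5A had 39.9, 41.6 and 42.5 CPM in shNC, 35.6, 30.4 and 33.3 CPM in shKDM5C, 20, 20.3 and 22.7 CPM in shYY1, and 17.4, 18 and 16.6 CPM in the double knockdown. These groups did not overlap. WNT5A fell by 0.98 on the log2 scale with shYY1 (SE 0.08, adjusted p = 1.02e-08) and by 1.25 in the double knockdown (SE 0.08, adjusted p = 1.1e-13). WNT7B had 25.4, 22.4 and 26.9 CPM in shNC, 7.83, 14.8 and 18.2 CPM in shKDM5C, 8.67, 12 and 13.2 CPM in shYY1, and 10.7, 9.33 and 7.71 CPM in the double knockdown. Every knockdown library was below every shNC library. WNT7B fell by 1.14 with shYY1 (SE 0.13, adjusted p = 5.13e-07) and by 1.43 in the double knockdown (SE 0.12, adjusted p = 1.93e-11). With shKDM5C its log2 fold change was −0.85 with all libraries (adjusted p = 0.216) and −0.61 without replicate 1 (adjusted p = 0.000335).

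WNT9A had 6.12, 4.25 and 3.71 CPM in shNC, 0.456, 1.35 and 0.928 CPM in shKDM5C, 3.44, 3.30 and 2.66 CPM in shYY1, and 10.0, 9.39 and 12.5 CPM in the double knockdown. It was lowest with shKDM5C and highest with both knockdowns, without overlap between these groups and shNC. Its log2 fold change was −2.31 with shKDM5C (SE 0.39, adjusted p = 0.0438; without replicate 1, −2.04, adjusted p = 2.03e-05) and 1.18 in the double knockdown (SE 0.18, adjusted p = 1.74e-06). WNT2B rose by 1.07 in the HK2 double knockdown, from 3.01, 4.08 and 3.55 CPM in shNC to 8.55, 7.51 and 6.35 CPM (SE 0.19, adjusted p = 2.33e-05). WNT5B had 32.4, 30.3 and 36.7 CPM in HK2 shNC, 19.4, 26.6 and 27.8 CPM in shKDM5C, and 32.7, 31.3 and 35.3 CPM in the double knockdown. Its shKDM5C libraries were all below shNC, and those of the double knockdown overlapped it. With shKDM5C the WNT5B log2 fold change was −0.40 with all libraries (adjusted p = 0.289) and −0.30 without replicate 1 (adjusted p = 0.0233). WNT10A had 1.86, 1.27 and 1.34 CPM in shNC and 0, 0.156 and 0.328 CPM in shKDM5C. With shYY1 it had 1.13, 0.648 and 0.116 CPM, and in the double knockdown 0.177, 0.294 and 0.907 CPM. It was not called with shKDM5C with all libraries, whereas without replicate 1 its log2 fold change was −2.61 (adjusted p = 0.00176). In the double knockdown it was −1.67 (SE 0.50, adjusted p = 0.00569), where the libraries hold 3, 5 and 16 counts. The double-knockdown call was lost in 2 of 13 alternatives, among them leaving out double-knockdown replicate 1. Its value moved to −2.63 without replicate 3.

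FZD8, a Frizzled receptor expressed in HK2 and low in ACHN, had 3.72, 2.92 and 4.17 CPM in shNC, 2.15, 1.77 and 4.75 CPM in shKDM5C, 0.772, 1.41 and 1.27 CPM in shYY1, and 0.708, 0.646 and 0.454 CPM in the double knockdown. The shYY1 and double-knockdown libraries were below all shNC libraries. FZD8 fell by 1.64 with shYY1 (SE 0.30, adjusted p = 0.000225) and by 2.57 in the double knockdown (SE 0.34, adjusted p = 1.48e-07). FZD6, the most abundant Frizzled in HK2, fell from 226, 237 and 230 CPM in shNC to 173, 179 and 182 CPM with shYY1 and 160, 157 and 159 CPM in the double knockdown, by 0.38 and 0.55 on the log2 scale. FZD7 rose by 0.61 and FZD2 fell by 0.59 in the double knockdown, where FZD2 had 43.2, 45.5 and 32.9 CPM against 62.3, 61.8 and 58.7 CPM in shNC. The FZD2 call was lost in 1 of 13 alternatives, over which its log2 fold change ranged from −0.68 to −0.46. FZD2 in shKDM5C had 22.9 CPM in replicate 1 and 48.0 and 48.1 CPM in its partners.

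Among the HK2 inhibitors, DKK1 had 27.8, 30.7 and 29.2 CPM in shNC, 6.0, 6.87 and 9.77 CPM in shKDM5C, 33.7, 36.0 and 37.7 CPM in shYY1, and 15.1, 8.92 and 12.8 CPM in the double knockdown. The shKDM5C and double-knockdown libraries were below shNC and the shYY1 libraries above it. DKK1 fell by 1.93 with shKDM5C (SE 0.19, adjusted p = 0.00829). Without replicate 1 its log2 fold change there was −1.83 (adjusted p = 1.30e-10). It fell by 1.25 in the double knockdown (SE 0.12, adjusted p = 5.4e-10) and rose by 0.29 with shYY1 (adjusted p = 0.0102). The shYY1 call was lost in 3 of 13 alternatives, among them leaving out shNC replicate 1 or shYY1 replicate 3. DKK3 had 301, 304 and 309 CPM in shNC, 106, 169 and 164 CPM in shKDM5C, 279, 263 and 273 CPM in shYY1, and 330, 318 and 354 CPM in the double knockdown, with log2 fold change −1.04 with shKDM5C (SE 0.16, adjusted p = 0.0326; without replicate 1, −0.88, adjusted p = 1.62e-13). AXIN2 had 1.53, 1.88 and 2.21 CPM in shNC, 1.37, 4.48 and 3.99 CPM in shKDM5C, 0.831, 0.824 and 0.462 CPM in shYY1, and 0.826, 1.76 and 1.42 CPM in the double knockdown. It fell by 1.41 with shYY1 (SE 0.39, adjusted p = 0.00899). That call was lost in 3 of 13 alternatives, among them leaving out shNC or shYY1 replicate 3. With shKDM5C the AXIN2 log2 fold change was 0.83 with all libraries (adjusted p = 0.384) and 1.16 without replicate 1 (adjusted p = 0.00215). TCF7 fell by 0.93 with shYY1 (adjusted p = 0.000642), at 3.68, 4.06 and 5.89 CPM against 9.24, 6.90 and 9.83 CPM in shNC, and overlapped shNC in the double knockdown at 9.26, 9.16 and 9.18 CPM. CTNNB1 had 608 CPM in shKDM5C replicate 1 and 311 and 325 CPM in its partners.

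**Figure D5:**
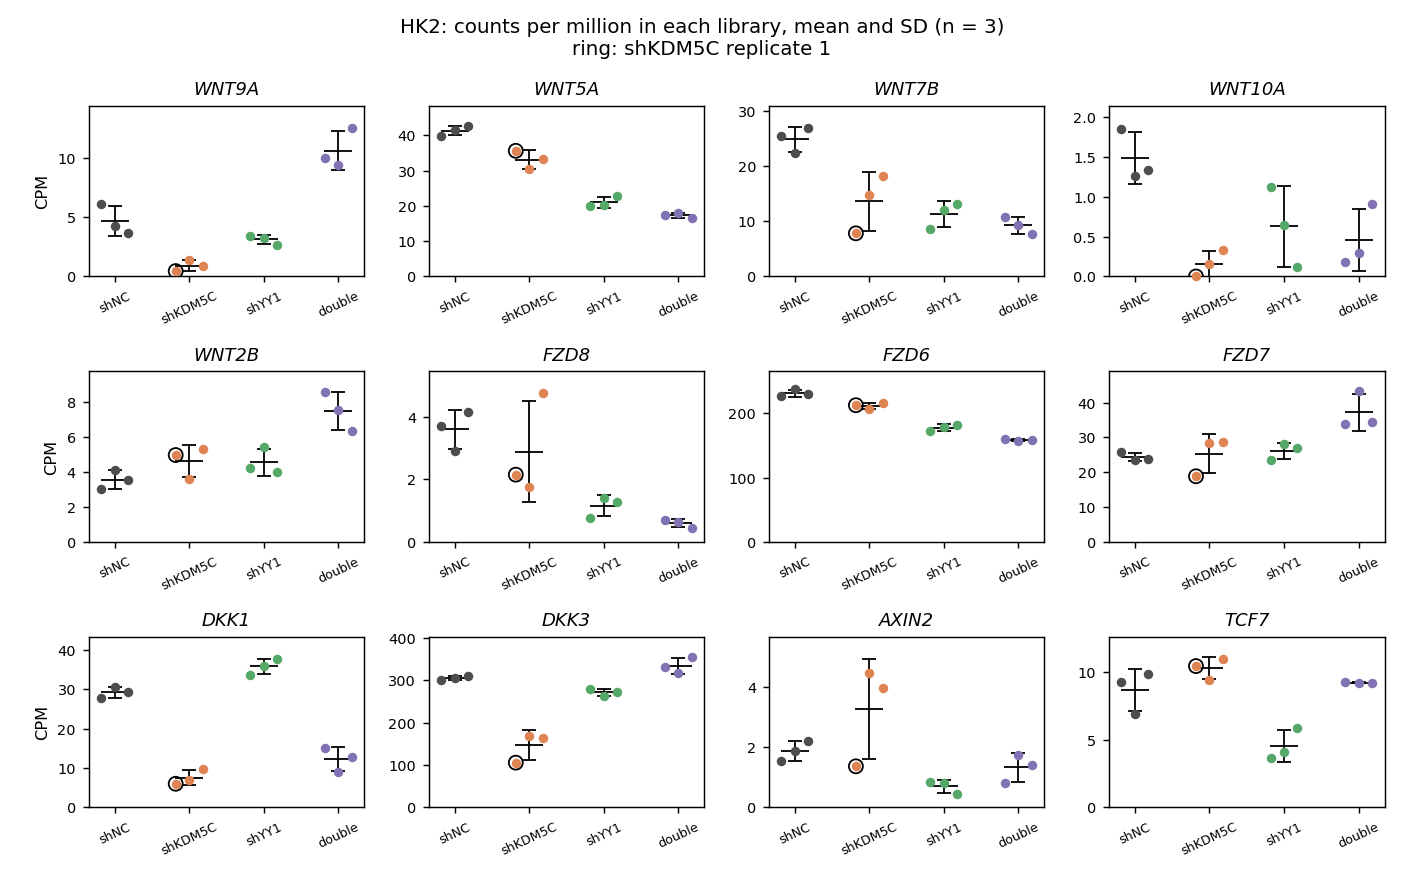
CPM in each HK2 library of 12 WNT genes, by group, on linear axes from 0; points are libraries, lines are the group mean with its SD, and a ring marks shKDM5C replicate 1. DKK1 is low with shKDM5C at 6.0 to 9.77 CPM and in the double knockdown, and WNT9A is highest in the double knockdown.

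In HK2 the interaction passed for 2 of 32 members, WNT9A (log2 4.06, SE 0.41, adjusted p = 0.000103) and DKK3 (log2 1.33, SE 0.18, adjusted p = 0.000644), beside 9.61% of all genes. By the stricter rule this left 1 above the sum (WNT9A) and none below, beside 1.60% and 0.497% of all genes. Without shKDM5C replicate 1, 7 of 33 passed (WNT9A, TCF7, DKK3, FZD4 and WNT5B above the sum, FZD1 and TCF7L2 below), beside 28.7% of all genes, and WNT9A had 3.81 there (adjusted p = 1.06e-09). The double knockdown differed from shKDM5C for 5 of 31 members, beside 11.9% of all genes, and without that library for 16 of 32, beside 43.3%. It differed from shYY1 for 18 of 32, beside 47.7%. The share of members that passed in each of these comparisons was of the order of the share of all genes.

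Between the lines, 20 of the 36 members tested responded differently to the double knockdown, 10 with a higher and 10 with a lower log2 fold change in ACHN, beside 23.3% and 22.7% of all genes. Past the stricter threshold 2 were higher (WNT5A and FZD8) and 8 lower (WNT2B, WNT9A, TCF7, ROR2, FZD4, AXIN2, NOTUM and WNT7B), beside 3.51% and 5.37%. WNT2B, at 27.5 to 28.4 CPM in the ACHN double knockdown against 109 to 115 CPM in its shNC, fell there and rose in HK2, so that its ACHN effect was 3.06 lower on the log2 scale (log2 −3.06, SE 0.15, adjusted p = 3.95e-16). WNT5A rose in ACHN and fell in HK2, with a difference of 1.97 (SE 0.14, adjusted p = 2.09e-12). WNT9A fell in ACHN and rose in HK2, with a difference of −2.02 (SE 0.30, adjusted p = 2.28e-06). TCF7, which fell in ACHN, had a difference of −2.47 (SE 0.26, adjusted p = 6.11e-09) and FZD4 one of −1.85 (SE 0.25, adjusted p = 3.13e-07). The values for ROR2 and FZD8 rest on few counts in one line, since ROR2 had 0, 2 and 2 counts in the HK2 double knockdown and none in HK2 shNC (the ROR2 call was lost without either library that holds counts), and FZD8 had 9, 9 and 7 counts in ACHN shNC. DKK1 fell in both lines, and its effects did not differ detectably (log2 0.40, SE 0.23, adjusted p = 0.152). Here too, a difference between the lines and one between any batches cannot be told apart.

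A list of 82 other genes of the pathway (Dishevelled, destruction-complex, planar polarity, R-spondin and target genes among them) was counted beside these members. In ACHN 18 of 64 rose and 21 fell with shKDM5C, beside 28.9% and 27.7% of all genes. With shYY1 22 of 64 rose and 21 fell, beside 24.2% and 24.5%, and in the double knockdown 28 of 64 rose and 20 fell, beside 30.7% and 32.0%. In HK2 1 of 61 rose and 1 fell with shKDM5C, beside 0.668% and 0.656% of all genes. With shYY1 7 of 60 rose and 18 fell, beside 14.3% and 14.7%, and in the double knockdown 14 of 61 rose and 22 fell, beside 25.5% and 24.3%. In the ACHN double knockdown CELSR2, a planar polarity cadherin, had a mean of 13.3 CPM against 94.0 CPM in shNC (log2 −2.81, adjusted p = 3.14e-17), and DAAM2, a formin that binds Dishevelled, had 0.233 against 4.96 CPM (log2 −4.32, adjusted p = 1.72e-09). SCRIB, a polarity scaffold, rose from 124 to 251 CPM and CCND1, cyclin D1, from 150 to 297 CPM, by 1.02 and 0.99 on the log2 scale. In the HK2 double knockdown the receptor TNFRSF19 fell from 111 to 20.5 CPM (log2 −2.43, adjusted p = 3.65e-23), and the glypican GPC6 rose from 33.7 to 102 CPM (log2 1.60, adjusted p = 2.99e-19). Named members that overlap other genes on the genome may share reads with them, since the counting used no strand option: in the current annotation the opposite-strand gene ST7L covers 21.5% of WNT2B exon bases, USP47 47.5% of DKK3 and PRSS23 18.9% of FZD4. A gene model on the same strand shares 25.3% of AXIN2 exon bases.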

How the data were processed

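RNA-seq of total RNA was analysed in 24 libraries, 3 in each of 8 groups taken from the labels. The authors aligned reads with HISAT2 (version 2.0.5) to hg38 and deposited raw counts per Ensembl gene from featureCounts; the labels give its version as 1.5.0-p3 and the table headers as 2.0.1, with paired-end counting and no strand option. Counts were not normalised by the authors. Totals ranged from 15926561 to 24272298 counts, and this depth limits members at a few counts.

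From these counts, CPM were computed with TMM library sizes over all 24 libraries, and each comparison was fitted to its own groups with edgeR's quasi-likelihood test (edgeR 4.0.16, R 4.3.3) over all genes that filterByExpr kept at a minimum count of 10, with Benjamini-Hochberg adjustment over all of them. A gene was called at adjusted p under 0.05; the stricter rule added a minimum of 1.5 for the size of the log2 fold change. Fitted fold changes of genes near 0 depend on the prior count. The interaction and the difference between lines were contrasts in fits over 4 groups. The scripts were tested on simulated data. Genes were named where a member passed the stricter rule in a comparison at 1 CPM or more, or was the highest of its role in a line; members named outside it were chosen after their values were seen. The members and gene lists were chosen with earlier results of these data known. Alternatives were DESeq2 (version 1.42.0), other scalings, other filters, all groups of a line in 1 fit, a replicate block, and leaving out each library. Promoter windows came from RefSeq.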

Additional observations from a re-analysis of the deposited data

Results flagged for a closer look

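For 20 of the 36 members tested ACHN and HK2 responded differently to the double knockdown in a test of the difference itself (adjusted p under 0.05), 10 with a higher and 10 with a lower log2 fold change in ACHN, beside 23.3% and 22.7% of all genes. The values below are the ACHN log2 fold change minus that of HK2. Among the ligands they were −3.06 for WNT2B, −2.02 for WNT9A, −2.43 for WNT7B, −1.46 for WNT10B, 1.97 for WNT5A and 1.05 for WNT5B. Among the receptors they were −4.54 for ROR2, −1.85 for FZD4, −0.39 for LRP6, 0.24 for FZD1, 0.74 for FZD6, 0.85 for FZD5, 1.07 for LGR4, 1.43 for FZD2 and 3.01 for FZD8. Among the feedback genes they were −4.20 for NOTUM and −1.89 for AXIN2. Among the nuclear genes they were −2.47 for TCF7, 0.20 for CTNNB1 and 0.24 for TCF7L2. The ROR2 value rests on 0 to 2 counts per library in HK2 and was lost without HK2 double-knockdown replicate 2 or 3. The NOTUM value rests on 0, 9 and 0 counts in the ACHN double knockdown and ranged from −8.73, without the library that holds them, to −3.51. The WNT7B value moved to −4.06 without ACHN double-knockdown replicate 3, which holds 5 of its 6 counts there. The WNT10B call was lost in 3 of 18 alternatives, among them leaving out ACHN shNC replicate 2 or 3. That of CTNNB1 was lost in 2 of 18, among them leaving out ACHN shNC replicate 2. With 3 libraries per group, single libraries were not tested as outliers.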

How the results depend on the processing

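The counts of members past the threshold in ACHN, between the control lines and between the effects of the double knockdown in the lines stayed within 1.5 times of the reported count under every alternative run. Those in HK2 did not. With shKDM5C against shNC (3 members) the count was 6 with DESeq2, 1 with scaling by total counts, 0 with the replicate block, 7 with all 4 groups in 1 fit and 10 at an unadjusted p. With shYY1 (13) it was 6, in the double knockdown (20) 10 and in the double knockdown against shYY1 (18) 8 with all 4 groups in 1 fit, which takes in shKDM5C replicate 1. The double knockdown against shKDM5C (5) gave 3 with the replicate block, 12 with all 4 groups and 11 at an unadjusted p, and the HK2 interaction (2) gave 4 with DESeq2 and 8 at an unadjusted p. The cause was not tested.

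Leaving out 1 library gave 0 to 14 members for HK2 shKDM5C (14 without shKDM5C replicate 1, 0 without any one shNC library), 9 to 14 for HK2 shYY1, 16 to 20 for the HK2 double knockdown, 1 to 16 for it against shKDM5C (16 without shKDM5C replicate 1, 1 without double-knockdown replicate 3), 15 to 18 against shYY1 and 2 to 7 for the HK2 interaction (7 without shKDM5C replicate 1). In ACHN the ranges were 18 to 21 with shKDM5C, 22 to 23 with shYY1, 23 to 27 in the double knockdown, 19 to 21 for it against shKDM5C, 24 to 26 against shYY1 and 22 to 26 for the interaction, and 31 to 32 between the control lines and 16 to 20 for the difference between lines. For the named members, 151 called results were recomputed under 2096 combinations with an alternative, of which 2008 kept the call, 88 lost it and 0 reversed. Some log2 fold changes crossed 1.5 under an alternative. In ACHN they ranged from −1.82 to −1.31 for AXIN2 with shYY1 and from −1.74 to −1.36 for RNF43 with shKDM5C. DKK1 with shKDM5C, not counted by the stricter rule, ranged from 1.42 to 1.54. The ACHN interaction ranged from −1.86 to −1.41 for TCF7 and from −1.87 to −1.31 for WNT10B. In HK2, FZD8 with shYY1 ranged from −1.82 to −1.43.

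The replicate numbers did not pair the libraries: 6 of 36 correlations between same-numbered libraries exceeded 0.1, and 7 of 24 libraries correlated best with their own number. With the replicate number as a block, the count was 21 in ACHN shKDM5C, 23 in ACHN shYY1 and 27 in the ACHN double knockdown, and 15 in HK2 shYY1 and 21 in the HK2 double knockdown. Depth limits the members at under about 1 CPM, where a few counts set the value.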
